A study of Mus musculus with 8 samples.

Results

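The interleukin-1 (IL-1) family was followed across 2 hepatic macrophage subsets of the mouse, through 10 genes taken by name from the deposited count tables. They are the ligands Il1a, Il1b and Il18, the inflammasome genes Nlrp3 and Casp1, the inhibitors Il1rn, Il1r2 and Il18bp, and the receptor chains Il1r1 and Il1rap. All 10 were among the 24786 gene symbols of the files, and all 10 were among the 15254 genes that passed the filter on low counts. They were taken by name, but chosen with earlier results of these data known.

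Poly(A) RNA of macrophages from liver was sequenced in 8 libraries, 2 for each of 4 groups of C57BL/6 mice. The groups were monocyte-derived macrophages (MoM) of dnTGFβRII mice (TG), MoM of wild-type mice (WT), liver-resident Kupffer cells of TG mice and Kupffer cells of WT mice. TG mice carry a dominant-negative form of TGF-β receptor II, in this line known to be expressed in T cells from a CD4 promoter, and serve as a model of cholangitis. Age, sex, the sorting scheme and whether the 2 libraries of a group came from different animals are not stated in the labels, so a p-value measures only the spread between these libraries.

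IL-1α and IL-1β signal through IL-1 receptor type 1 (Il1r1), which needs the accessory chain encoded by Il1rap. The receptor antagonist (Il1rn) occupies that receptor without signalling, while the type 2 receptor (Il1r2) binds IL-1 as a decoy because it lacks a signalling domain. The precursors of IL-1β and IL-18 are cut by caspase-1 (Casp1) after NLRP3 or another sensor has assembled an inflammasome, and IL-18 binding protein (Il18bp) neutralises free IL-18. Kupffer cells are the resident macrophages of the liver sinusoid, and MoM derive from blood monocytes that entered the liver.

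In the GRCm38 build, Il1a (129299610 to 129309972), Il1b (129364570 to 129371139) and Il1rn (24336853 to 24351494) lie on chromosome 2. Il1r2 (40074079 to 40125231) and Il1r1 (40225080 to 40317257) lie near each other on chromosome 1, Il18 (50554827 to 50581840) and Casp1 (5298517 to 5307265) on chromosome 9. Il18bp lies on chromosome 7 (102014885 to 102018690), Nlrp3 on chromosome 11 (59541568 to 59566956) and Il1rap on chromosome 16 (26581704 to 26730117). Each library has 1 count per gene symbol, so isoforms are not told apart, and which stretches were counted is not given. Exons of 4 members overlap exons of a gene on the other strand, by 222 bp for Il1a, 25 bp for Il1b, 80 bp for Il18bp (with Numa1) and 552 bp for Il1rap. Since the strand setting of the counting is not given, reads from such stretches cannot be assigned to 1 gene or the other.

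Promoter windows are shown for the 4 members that passed the test between subsets below, 1 higher and 3 lower in MoM, so that the letters upstream of genes with opposite patterns can be read side by side. Each window holds 250 bases before and 50 after a RefSeq transcription start (GRCm38.p6), 5′ to 3′ on the strand of the gene. Capitals mark matches, on either strand, to a γ-activated site for STAT factors (GAS, TTCNNNGAA) or a κB site for NF-κB (GGG and CC with 5 bases of any kind between). The windows are chr1:40085843-40086142 (+) for Il1r2, chr9:50554450-50554749 (+) for Il18, chr7:102018183-102018482 (-) for Il18bp and chr9:5298267-5298566 (+) for Casp1.
Il1r2: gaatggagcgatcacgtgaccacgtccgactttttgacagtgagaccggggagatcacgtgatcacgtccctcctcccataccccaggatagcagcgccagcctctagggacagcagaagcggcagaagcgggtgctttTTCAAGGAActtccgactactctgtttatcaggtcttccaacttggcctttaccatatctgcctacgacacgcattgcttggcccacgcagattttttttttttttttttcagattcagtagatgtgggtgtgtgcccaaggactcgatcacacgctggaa
Il18: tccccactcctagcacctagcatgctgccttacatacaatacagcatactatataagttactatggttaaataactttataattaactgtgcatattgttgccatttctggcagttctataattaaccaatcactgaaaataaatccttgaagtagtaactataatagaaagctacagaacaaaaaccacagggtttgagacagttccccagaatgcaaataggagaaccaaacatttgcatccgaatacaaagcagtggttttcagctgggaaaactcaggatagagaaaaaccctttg
Il18bp: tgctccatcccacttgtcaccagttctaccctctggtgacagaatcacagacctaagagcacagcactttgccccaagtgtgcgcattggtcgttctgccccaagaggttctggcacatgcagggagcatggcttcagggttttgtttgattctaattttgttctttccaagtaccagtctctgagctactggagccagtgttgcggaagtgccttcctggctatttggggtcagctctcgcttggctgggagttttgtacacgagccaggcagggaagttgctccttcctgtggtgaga
Casp1: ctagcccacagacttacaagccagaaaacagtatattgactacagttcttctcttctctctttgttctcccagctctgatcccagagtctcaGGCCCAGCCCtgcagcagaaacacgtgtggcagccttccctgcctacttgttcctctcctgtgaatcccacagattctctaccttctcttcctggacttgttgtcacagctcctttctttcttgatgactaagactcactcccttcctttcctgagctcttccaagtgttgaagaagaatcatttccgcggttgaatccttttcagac
The Il1r2 window held 1 GAS match, which 8.3% of 32851 mouse promoter windows also held. It starts 111 bases before the RefSeq start, which itself lies inside the longer span that GENCODE gives the gene. The Il18 window ends before the start that GENCODE gives that gene. The Casp1 window held 1 κB match, as did 50.8% of all windows, and the windows of Il18 and Il18bp held neither motif. Over the 14 windows that RefSeq gives the 10 members, 8 held a κB match and 1 a GAS match. The windows are not all separate. Those of Il1rn at 24345041 to 24345340 and 24345121 to 24345420 overlap, and the same κB site is counted in both. The interferon-stimulated response element (GAAA and GAAA with 2 bases of any kind between, in 3.44% of all windows) matched in 1, that of Il1rap, and the PU.1 core (GAGGAA, in 28.3%) in 3. A match describes letters only, and binding was not measured.

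The libraries held 26190194 to 30308132 counts, and no member had fewer than 18 counts in any library. Levels are given as CPM, the count of a gene per 1000000 counts of its library after scaling by the TMM factor. The Kupffer marker Clec4f was at 33.3 to 3599 CPM in MoM libraries and 2736 to 12314 CPM in Kupffer libraries, and the monocyte receptor Ccr2 at 128 to 460 CPM in MoM libraries and 3.88 to 13.1 CPM in Kupffer libraries. The macrophage marker Adgre1 was at 182 to 720 CPM in MoM libraries and 1044 to 2491 CPM in Kupffer libraries. Tgfbr2, the mouse gene of the receptor that the transgene mimics, was at 249 and 178 CPM in MoM TG, 232 and 174 CPM in MoM WT, 319 and 289 CPM in Kupffer TG, and 349 and 345 CPM in Kupffer WT; whether transgene reads enter that count is not stated. At 3599 CPM of Clec4f, MoM WT replicate 1 stood apart from the other MoM libraries (33.3 to 125 CPM), and its 10 Kupffer cell markers summed to 8593 CPM, against 160 to 538 CPM in those. Kupffer TG replicate 2 held 8986 CPM over 10 markers of sinusoidal endothelial cells, where the other Kupffer libraries held 1650 to 2388 CPM, and MoM TG replicate 2 held 4068 CPM over 12 neutrophil markers. In all such comparisons of bulk RNA, a change in the share of a cell type and a change of RNA per cell cannot be told apart.

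Per kilobase of annotated exon, Il1b had the highest mean in all 4 groups. It was at 441 CPM per kb in MoM TG, 162 in MoM WT, 281 in Kupffer TG and 302 in Kupffer WT. In MoM WT it was followed by Il1r2 and Nlrp3 (105 CPM per kb each) and Il1a (79.0). In Kupffer WT the next were Il18bp (177 CPM per kb), Il1a (134) and Nlrp3 (107). In MoM TG the next were Il1r2 (176 CPM per kb) and Nlrp3 (126), and in Kupffer TG they were Il18bp (211) and Il1a (201), so Il1r2 followed Il1b in MoM TG and Il18bp in both Kupffer groups. The receptor chains were low: Il1r1 was at 3.33, 3.66, 6.86 and 0.278 CPM per kb in MoM TG, MoM WT, Kupffer TG and Kupffer WT, and Il1rap at 1.95, 1.24, 0.725 and 1.09. Since 2 libraries make a group and Il1b differed up to 3.33-fold within one, neighbours in this order mostly lay within each other's range. Il1b was not highest in every library. Il1a was highest in Kupffer TG replicate 2 (268 CPM per kb, Il1b 147) and Il18bp in Kupffer WT replicate 2 (181, Il1b 139). In MoM WT replicate 1 Nlrp3 was highest (108, Il1b 96.1). The length counts every annotated exon, which lowers the value of genes with many isoforms such as Il1rap (11.36 kb) and Il1rn (5.54 kb).

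**Figure D1:**
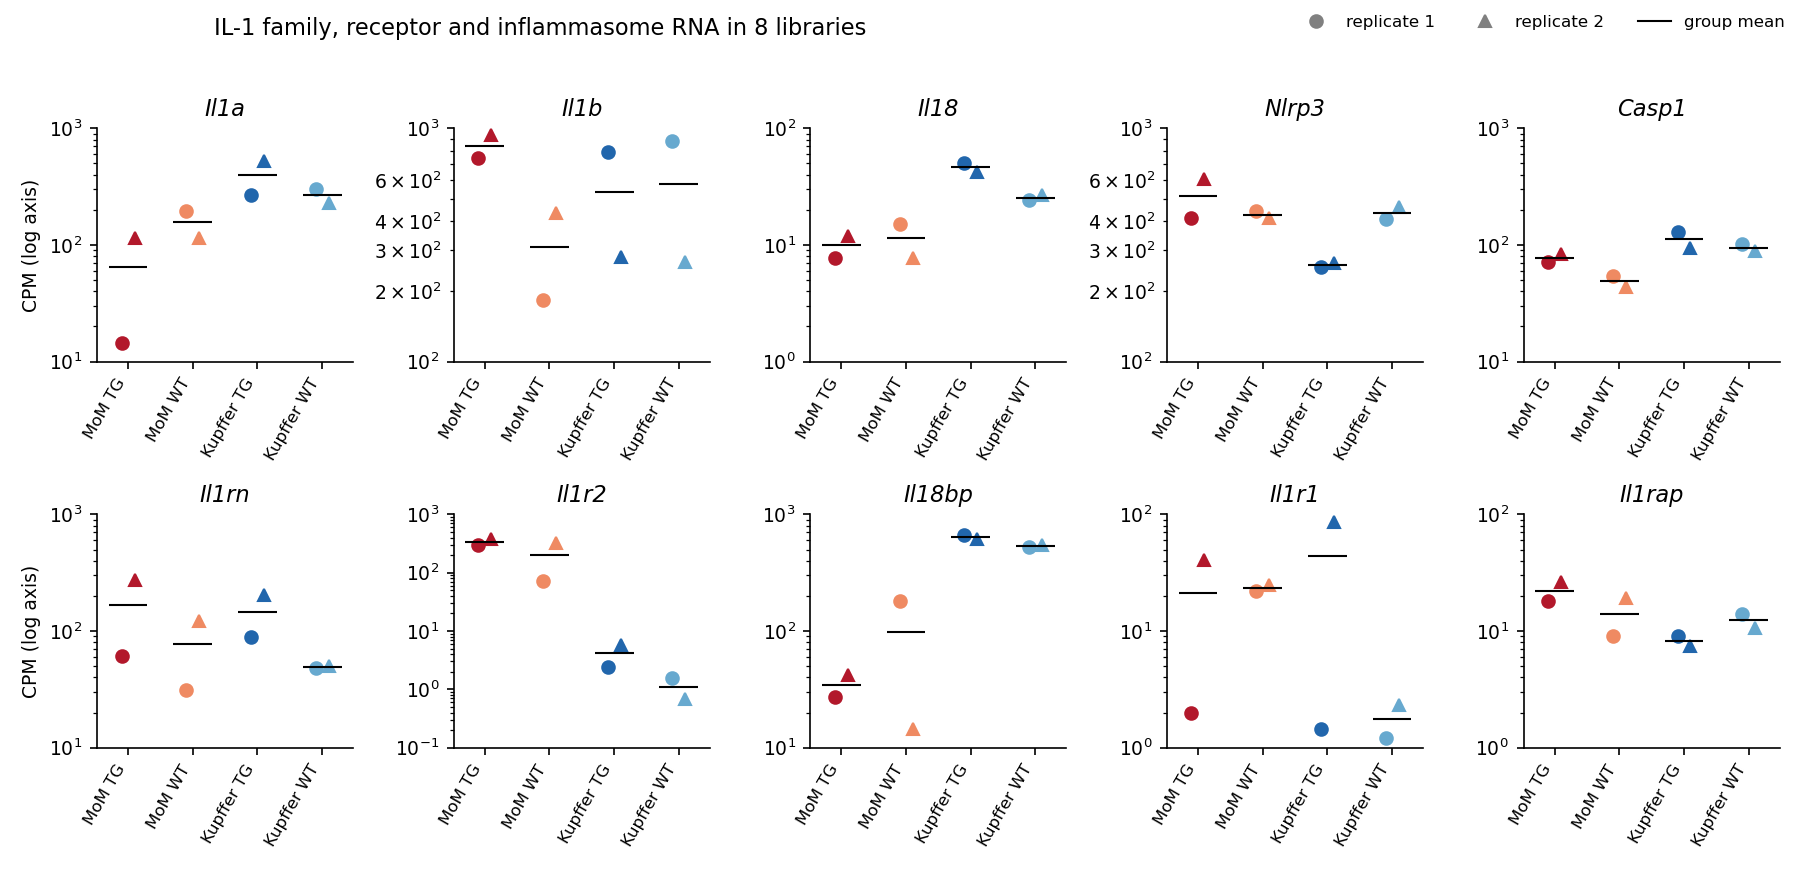
Level of each of the 10 members in every library, in CPM on a log axis, with groups from left to right MoM TG, MoM WT, Kupffer TG and Kupffer WT; points are libraries and bars group means. Il1r2 lies between 72.5 and 378 CPM in MoM libraries and between 0.672 and 5.83 CPM in Kupffer cells, while Il1b lies between 183 and 939 CPM in MoM libraries and between 266 and 885 CPM in Kupffer libraries.

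MoM and Kupffer cells differed in the decoy receptor Il1r2, in Il18 and its inhibitor Il18bp, and in Casp1. With both genotypes averaged, 4 of the 10 members passed edgeR's quasi-likelihood test at a Benjamini-Hochberg adjusted p below 0.05, as did 18.7% of all 15254 genes tested. Il1r2 rose in MoM (1 member, against 10.6% of all genes called higher), and Il18, Il18bp and Casp1 fell (3 members, against 8.05% called lower). In 5 of the 10 the 4 MoM libraries lay wholly above or below the 4 Kupffer libraries, which 26.2% of all genes did. The median log2 fold change was 0.15 over the members and 0.09 over all genes tested.

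Il1r2, the decoy receptor, stood at 293 and 378 CPM in MoM TG, 72.5 and 327 CPM in MoM WT, 2.46 and 5.83 CPM in Kupffer TG, and 1.54 and 0.672 CPM in Kupffer WT. Every MoM library was above every Kupffer library, and the lowest MoM value was that of replicate 1 of the WT. The level averaged 268 ± 135 CPM over MoM libraries and 2.62 ± 2.25 CPM over Kupffer libraries (SD, n = 4 each). The log2 fold change was 6.91 ± 0.70 (SE), or 120-fold higher in MoM, with an adjusted p of 0.00574 by edgeR's quasi-likelihood test. The call held without any 1 library except Kupffer WT replicate 2, without which the adjusted p was 0.056 at a log2 fold change of 6.61; without MoM WT replicate 2 the log2 fold change was 6.18. Without Kupffer TG replicate 2 and MoM WT replicate 1, the 2 libraries with the highest sums of endothelial markers, the log2 fold change was 7.57. The neutrophil-rich MoM TG replicate 2 stays in that fit, and without it alone the log2 fold change was 6.81 (adjusted p = 0.0239).

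The same gene passed within each genotype. In TG the log2 fold change of Il1r2 was 6.34 ± 0.96 (80.9-fold higher in MoM, adjusted p = 0.038), and in WT 7.49 ± 1.02 (179-fold higher in MoM, adjusted p = 0.0374), both by edgeR's quasi-likelihood test. In TG 2 members were called, against 2.5% of all genes, and in WT 1 member, against 1.17%. Non-overlap was common with 2 libraries a side: 7 members in TG and 6 in WT had groups that did not overlap, against 52.9% and 68.1% of all genes. Leaving out single libraries ended the TG call for replicate 1 of Kupffer TG (adjusted p = 0.114), either replicate of Kupffer WT (0.103 each), MoM TG replicate 1 (0.166) and MoM TG replicate 2 (0.118). The WT call was lost without Kupffer WT replicate 1 (0.269) or 2 (0.358), MoM TG replicate 1 (0.105) or 2 (0.0999), or MoM WT replicate 2 (0.11, at a log2 fold change of 6.02).

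Markers of several other blood cells moved with Il1r2. Neutrophils, which carry the decoy receptor as a known surface protein, were traced by 12 markers. These summed to 132 and 4068 CPM in MoM TG, 60 and 564 CPM in MoM WT, 39.5 and 22.1 CPM in Kupffer TG, and 2.66 and 2.95 CPM in Kupffer WT, so that all 4 MoM libraries were higher. MoM TG replicate 1 held 293 CPM of Il1r2 at 132 CPM of neutrophil markers, and MoM TG replicate 2 held 378 CPM at 4068 CPM. The classical monocyte markers, 8 genes, summed to 482 to 3678 CPM in MoM libraries and 18.8 to 118 CPM in Kupffer libraries. The dendritic cell markers, also 8 genes, summed to 888 to 1556 CPM in MoM libraries and 44.8 to 167 CPM in Kupffer libraries. Over the 8 libraries the level of Il1r2 had a Pearson r of 0.80 with the mean of the neutrophil markers, 0.93 with classical monocyte, 0.95 with dendritic cell and -0.94 with Kupffer cell markers. These points share the split into subsets, and the part of other cells in the Il1r2 level was not tested.

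**Figure D2:**
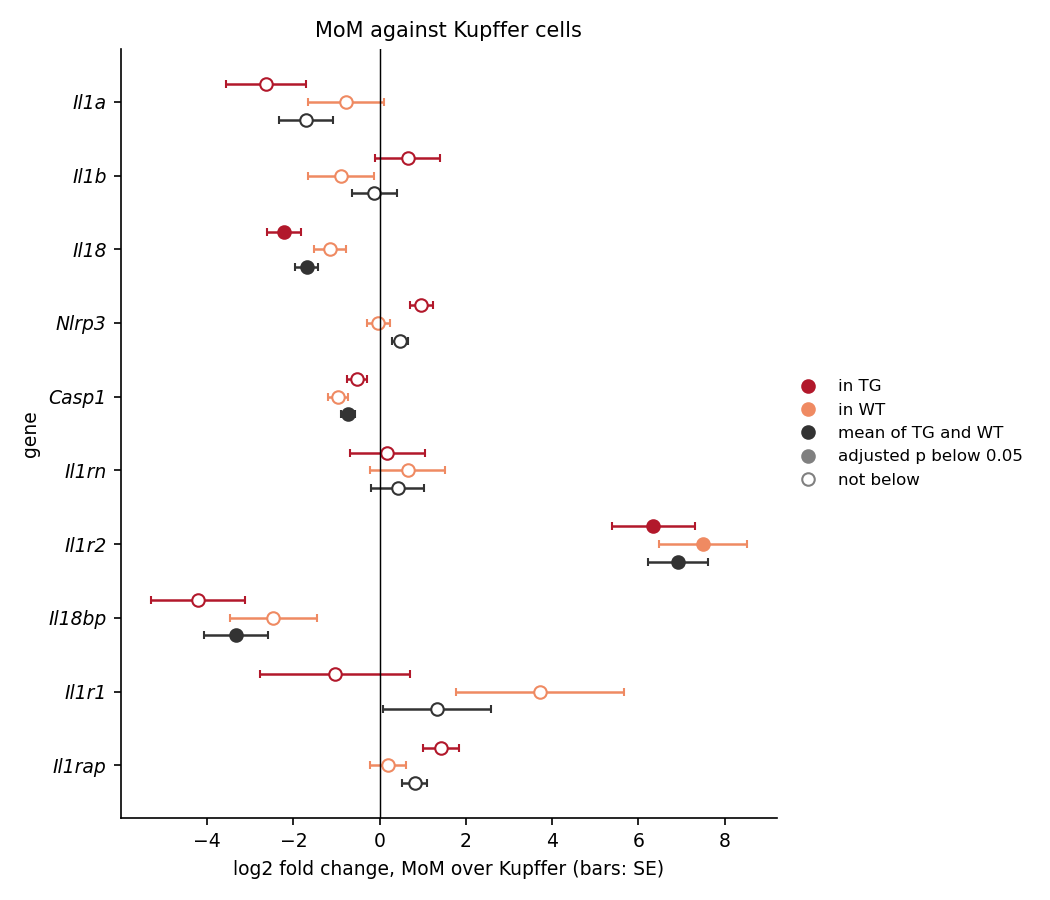
Log2 fold change of MoM over Kupffer cells for each member, with standard errors as bars and the called ones marked. For each gene the upper row is TG mice, the middle row WT mice and the lower row the mean of both genotypes. Il1r2 stands at 6.34 in TG and 7.49 in WT, and Il18 (-2.22 and -1.15) and Il18bp (-4.21 and -2.46) lie below 0 in both.

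Il18, the ligand cut by caspase-1, stood at 7.79 and 12 CPM in MoM TG, 15.2 and 7.79 CPM in MoM WT, 50.2 and 42.3 CPM in Kupffer TG, and 24.2 and 26.7 CPM in Kupffer WT. All MoM libraries were below all Kupffer libraries. The gene fell in MoM by 1.69 ± 0.27 (SE) on the log2 scale, 3.22-fold lower, with an adjusted p of 0.0159 by edgeR's quasi-likelihood test. The adjusted p was 0.0729 without Kupffer WT replicate 1, 0.0738 without Kupffer WT replicate 2 and 0.0659 without MoM TG replicate 1. Within TG it was 4.67-fold lower in MoM (log2 fold change -2.22 ± 0.39, adjusted p = 0.0476), a call that ended without replicate 1 of Kupffer TG (0.114), either replicate of Kupffer WT (0.125 each) and MoM TG replicate 1 (0.259) or 2 (0.132). Within WT the log2 fold change was -1.15 ± 0.38 with an adjusted p of 0.143.

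Il18bp encodes the soluble protein that neutralises IL-18, and its values separated the subsets more widely than those of its ligand. It stood at 27.4 and 41.7 CPM in MoM TG, 181 and 14.4 CPM in MoM WT, 661 and 615 CPM in Kupffer TG, and 522 and 548 CPM in Kupffer WT. The 4 Kupffer libraries lay close together, at 587 ± 63.1 CPM (SD, n = 4), and the 4 MoM libraries, at 66.0 ± 77.2 CPM (SD, n = 4), did not. The gene fell in MoM by 3.33 ± 0.74 (SE) on the log2 scale, 10.1-fold lower, with an adjusted p of 0.0299 by edgeR's quasi-likelihood test.

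The highest MoM value of Il18bp, 181 CPM, was that of WT replicate 1, the MoM library with 8593 CPM of Kupffer cell markers. Over the 8 libraries the level of Il18bp had a Pearson r of 0.98 with the mean of those markers, as points that share the split into subsets; the part of Kupffer cell RNA in it was not tested. Without that library the log2 fold change was -4.71 (adjusted p = 0.00491), and without it and Kupffer TG replicate 2 it was -4.81. The call was lost without Kupffer WT replicate 1 (adjusted p = 0.0907) or 2 (0.0945) and without MoM TG replicate 1 (0.116) or 2 (0.0947). Within TG the log2 fold change was -4.21 ± 1.09 (adjusted p = 0.0841) and within WT -2.46 ± 1.00 (adjusted p = 0.193), and neither passed. Leaving out MoM WT replicate 1 let both pass, at -4.21 (0.0149) in TG and -5.22 (0.0268) in WT. Leaving out replicate 2 of that group let TG pass (0.015) and gave -1.57 in WT.

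**Figure D3:**
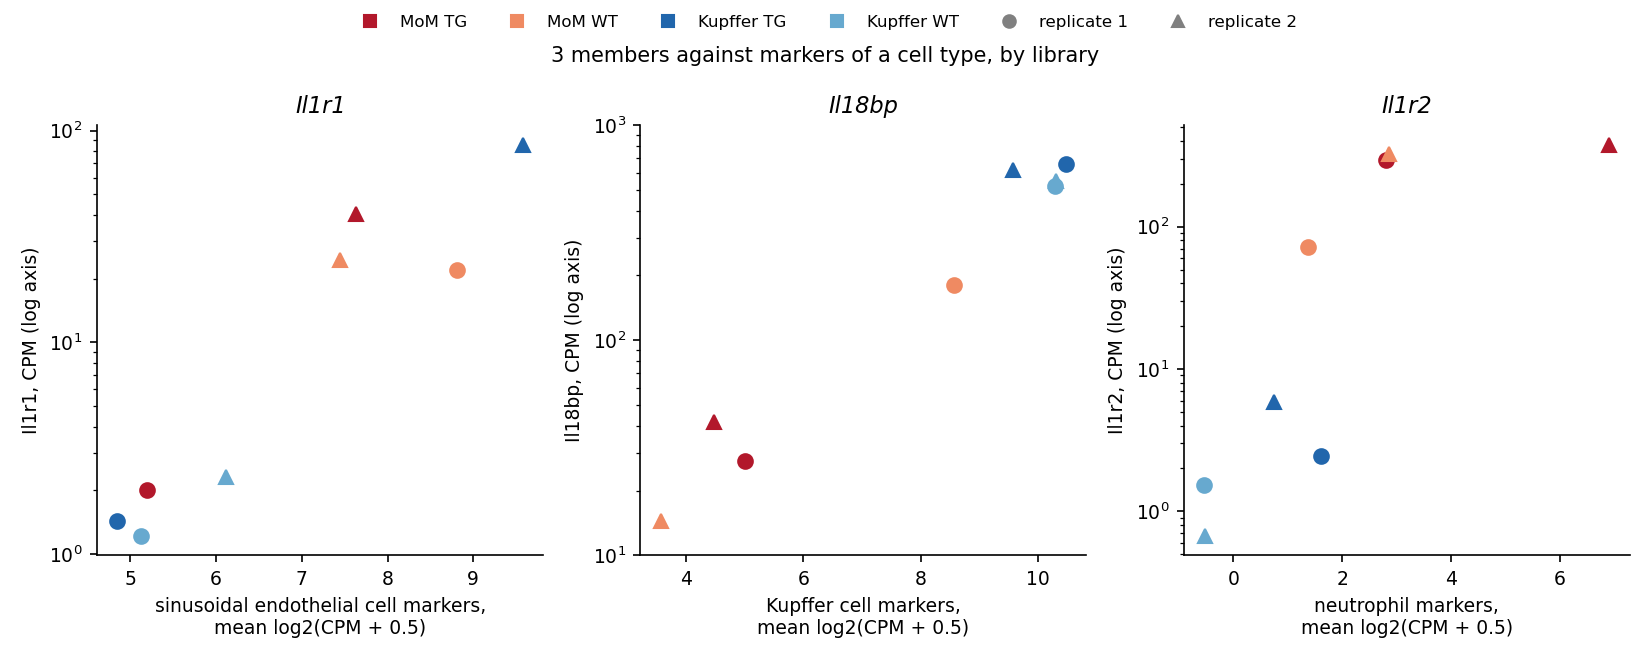
Level of Il1r1, Il18bp and Il1r2 (CPM, log axis) against the mean log2(CPM + 0.5) of markers of sinusoidal endothelial cells, Kupffer cells and neutrophils, 1 point per library. Kupffer TG replicate 2 has both the highest endothelial marker mean (9.58) and the highest Il1r1 level (85.9 CPM), and MoM WT replicate 1 (181 CPM of Il18bp) lies between the other MoM and the Kupffer libraries.

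Casp1 stood at 71.0 and 83.1 CPM in MoM TG, 54.0 and 43.8 CPM in MoM WT, 129 and 93.8 CPM in Kupffer TG, and 101 and 88.9 CPM in Kupffer WT. The subsets did not overlap, with 83.1 CPM as the highest MoM value and 88.9 CPM as the lowest Kupffer value. The gene fell in MoM by 0.74 ± 0.16 (SE) on the log2 scale, 1.67-fold lower, with an adjusted p of 0.03 by edgeR's quasi-likelihood test. This was the smallest of the 4 called differences. It was lost without any 1 of 6 libraries, namely replicate 1 of Kupffer TG (an adjusted p of 0.0527), either replicate of Kupffer WT (0.109 for 1 and 0.0939 for 2), MoM TG replicate 1 (0.11) or 2 (0.0768), and MoM WT replicate 2 (0.0942). Within TG the log2 fold change was -0.53 ± 0.23 (adjusted p = 0.217) and within WT -0.96 ± 0.23 (0.0968). The WT difference passed without Kupffer TG replicate 1 (0.0421) or 2 (0.0406), and on the 4 WT libraries alone (0.045).

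Il1a encodes IL-1α, which acts without caspase-1 and is known as an alarmin of damaged cells. It stood at 14.5 and 114 CPM in MoM TG, 197 and 115 CPM in MoM WT, 266 and 529 CPM in Kupffer TG, and 300 and 231 CPM in Kupffer WT. All MoM libraries were below all Kupffer libraries, but the log2 fold change of -1.70 ± 0.63 (SE) did not pass edgeR's quasi-likelihood test (adjusted p = 0.11). Without MoM TG replicate 2 it passed, at -2.77 (adjusted p = 0.0372), and DESeq2 on all libraries gave an adjusted p of 0.013. Within TG it was -2.63 ± 0.93 (adjusted p = 0.145), with -1.80 and -4.78 without replicate 1 and replicate 2 of MoM TG, and within WT -0.77 ± 0.88 (adjusted p = 0.594).

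Il1b did not separate the subsets. It stood at 743 and 939 CPM in MoM TG, 183 and 435 CPM in MoM WT, 791 and 280 CPM in Kupffer TG, and 885 and 266 CPM in Kupffer WT. The 2 libraries of a Kupffer group differed by 2.83-fold in TG and 3.33-fold in WT, more than the group means did. The level averaged 575 ± 334 CPM over MoM libraries and 555 ± 329 CPM over Kupffer libraries (SD, n = 4 each), with a log2 fold change of -0.12 ± 0.53 and an adjusted p of 0.888 by edgeR's quasi-likelihood test. The value was above 0 without Kupffer TG replicate 1 (0.30), Kupffer WT replicate 1 (0.38) or MoM WT replicate 1 (0.12).

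Nlrp3, the sensor, was more even than any ligand. It stood at 411 and 609 CPM in MoM TG, 440 and 413 CPM in MoM WT, 255 and 265 CPM in Kupffer TG, and 407 and 462 CPM in Kupffer WT. The 2 Kupffer TG libraries were the lowest of the 8, and the other 6 lay between 407 and 609 CPM. MoM over Kupffer cells, the log2 fold change was 0.97 ± 0.26 in TG (adjusted p = 0.0889) and -0.03 ± 0.26 in WT (adjusted p = 0.954), and with both averaged 0.47 ± 0.18 (adjusted p = 0.117), none past edgeR's threshold.

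Il1rn, the receptor antagonist, stood at 61.0 and 272 CPM in MoM TG, 31.4 and 123 CPM in MoM WT, 89.5 and 203 CPM in Kupffer TG, and 48.4 and 50.5 CPM in Kupffer WT. Replicates of a group differed by up to 4.46-fold, and the subsets overlapped (log2 fold change 0.42 ± 0.61, adjusted p = 0.663 by edgeR's quasi-likelihood test). It was -0.31 without replicate 2 of MoM TG and -0.23 without replicate 2 of MoM WT. Il1rap, the accessory chain, stood at 18.1 and 26.2 CPM in MoM TG, 9.08 and 19.1 CPM in MoM WT, 9.07 and 7.41 CPM in Kupffer TG, and 14.1 and 10.6 CPM in Kupffer WT. Its subsets overlapped, and its log2 fold change of 0.81 ± 0.30 did not pass (adjusted p = 0.105). Without MoM WT replicate 1 it passed, at 1.02 (adjusted p = 0.0446).

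Il1r1, the signalling receptor, was spread widely within the TG groups. It stood at 2.00 and 40.4 CPM in MoM TG, 22.0 and 24.6 CPM in MoM WT, 1.44 and 85.9 CPM in Kupffer TG, and 1.22 and 2.31 CPM in Kupffer WT. The 2 Kupffer TG libraries differed by 59.8-fold and the 2 MoM TG libraries by 20.3-fold, and no comparison of subsets passed edgeR's test (averaged log2 fold change 1.34 ± 1.25, adjusted p = 0.484; in WT, where the groups did not overlap, 3.72 ± 1.94, adjusted p = 0.265). Fitted on the 4 WT libraries alone, the WT difference passed (3.65 ± 0.41, adjusted p = 0.0185). The averaged value was -0.37 without MoM TG replicate 2 and 3.71 without Kupffer TG replicate 2. Sinusoidal endothelial cells, which line the liver sinusoids and are a known site of this receptor, were traced by 10 markers whose summed level was 563 and 2387 CPM in MoM TG, 5619 and 2165 CPM in MoM WT, 1650 and 8986 CPM in Kupffer TG, and 1940 and 2388 CPM in Kupffer WT. As a mean log2(CPM + 0.5) over these markers, the levels were 5.19 and 7.63 in MoM TG, 8.81 and 7.45 in MoM WT, 4.85 and 9.58 in Kupffer TG, and 5.12 and 6.12 in Kupffer WT. The 4 libraries with more than 20 CPM of Il1r1 had the 4 highest of these means, though not the 4 highest sums, among which was that of Kupffer WT replicate 2, and over the 8 libraries the level of Il1r1 had a Pearson r of 0.94 with that mean. The part of endothelial RNA in the Il1r1 level was not tested.

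Ratios taken within a library set each inhibitor beside its partner, with 0.5 CPM added to both levels, which weighs on the low values of Il1r1 and of Il1r2 in Kupffer cells. Il1r2 relative to Il1r1 was 118 and 9.25 in MoM TG, 3.25 and 13 in MoM WT, 1.53 and 0.0732 in Kupffer TG, and 1.19 and 0.416 in Kupffer WT. All MoM libraries were above all Kupffer libraries. The mean log2 ratio was 3.87 ± 2.18 in MoM and -1.04 ± 1.99 in Kupffer cells (SD, n = 4 each). The exact permutation p was 0.0286, 2-sided, the smallest that 70 splits allow. Adjusted over the 6 ratio tests this permutation p was 0.0857 and did not pass. A single ratio test at the smallest p could not pass this adjustment, so not passing says little about the ratio. Il18bp relative to Il18 was 3.37 and 3.37 in MoM TG, 11.6 and 1.80 in MoM WT, 13 and 14.4 in Kupffer TG, and 21.2 and 20.2 in Kupffer WT. The MoM libraries were all lower, with a mean log2 ratio of 1.97 ± 1.12 in MoM and 4.07 ± 0.35 in Kupffer cells (SD, n = 4 each; exact permutation p = 0.0286, adjusted 0.0857). Il1rn relative to Il1b was 0.0826 to 0.29 in MoM and 0.0552 to 0.728 in Kupffer cells, which overlapped (exact permutation p = 0.943, n = 4 each).

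**Figure D4:**
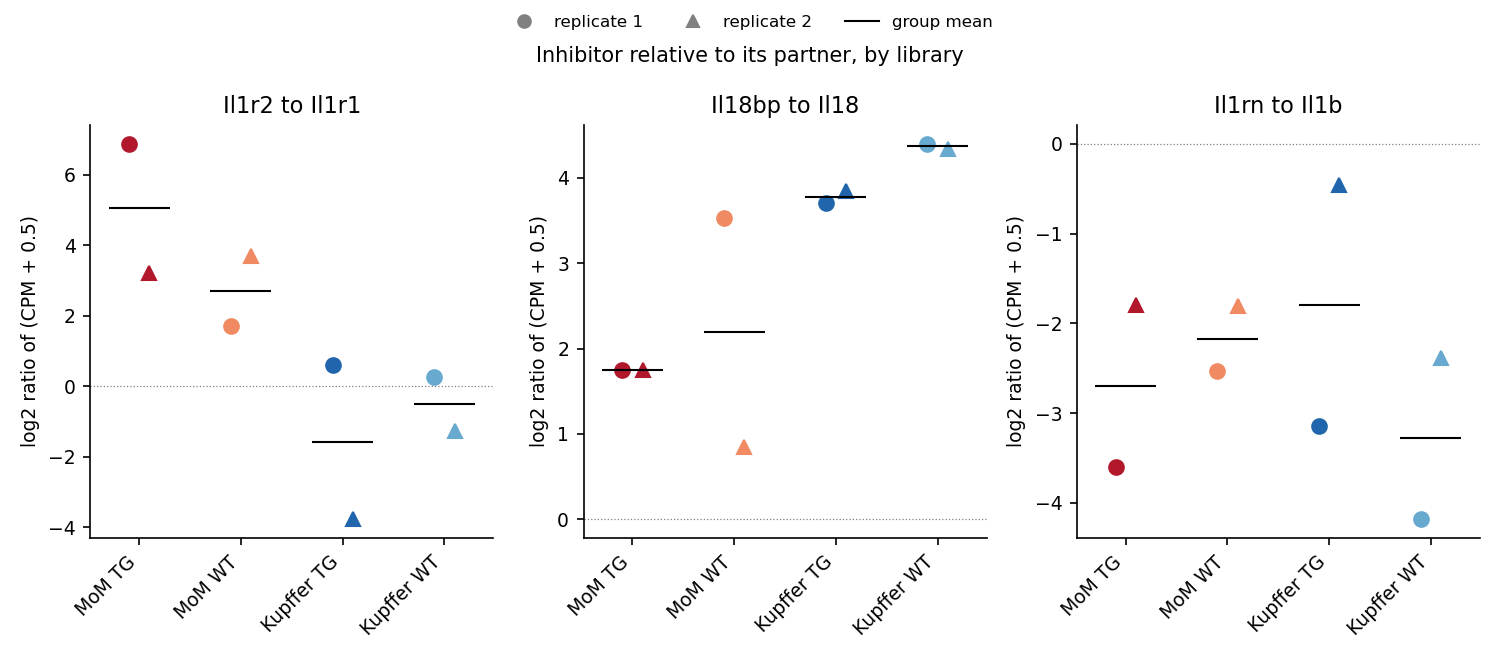
Log2 ratio of each inhibitor to its partner within each library, with 0.5 CPM added to both (Il1rn to Il1b, Il1r2 to Il1r1, Il18bp to Il18), with groups from left to right MoM TG, MoM WT, Kupffer TG and Kupffer WT. The Il1r2 to Il1r1 ratio is 1.70 or more in MoM and 0.61 or less in Kupffer cells, and the Il18bp to Il18 ratio is 3.53 or less in MoM and 3.70 or more in Kupffer cells.

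Between genotypes, no member passed edgeR's quasi-likelihood test in either subset: 0 of the 10, and 0% of the 15254 genes, were called in Kupffer cells, in MoM and in their average. At an unadjusted p below 0.05 the count was 1 of 10 members in each, against 5.94% of all genes in Kupffer cells, 6.47% in MoM and 6.4% in the average. DESeq2 called 236 genes in Kupffer cells, 133 in MoM and 236 in the average, and no member in any of them. The authors' deposited table of 179 genes for TG against WT, whose cell type is not named, lists no member either.

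In Kupffer cells the groups did not overlap for 6 of the 10 members, against 34.4% of all genes. Nlrp3 was at 255 and 265 CPM in Kupffer TG and 407 and 462 CPM in Kupffer WT (log2 fold change -0.74 ± 0.26, adjusted p = 0.73 in edgeR's test), the 1 member below 0.05 before adjustment. Il18 was at 50.2 and 42.3 CPM in Kupffer TG and 24.2 and 26.7 CPM in Kupffer WT (0.86 ± 0.38, adjusted p = 0.73). The lowest TG value of Il18 was above the highest WT value, while both TG values of Nlrp3 were below both WT values. Of the inhibitors, Il1rn had a log2 fold change of 1.57 ± 0.89, Il1r2 of 1.90 ± 0.83 and Il18bp of 0.25 ± 0.95, with TG above WT without overlap, and Il1rap one of -0.58 ± 0.42, with TG below WT. Without Kupffer TG replicate 2, the library richest in endothelial markers, the values of Il1rn and Il1r2 were 0.90 and 1.18, and Il1r2 was at 2.64 without Kupffer WT replicate 1. In the same libraries neutrophil markers summed to 39.5 and 22.1 CPM in Kupffer TG and 2.66 and 2.95 CPM in Kupffer WT, and classical monocyte markers to 109 and 118 CPM in Kupffer TG and 36.4 and 18.8 CPM in Kupffer WT; their part in these levels was not tested. Il1r1 reached 85.9 CPM in Kupffer TG replicate 2, the library with the most endothelial marker RNA, and 1.44 CPM in replicate 1, against 1.22 and 2.31 CPM in Kupffer WT.

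In MoM the groups did not overlap for 3 of the 10 members, against 39.2% of all genes. Il1b was at 743 and 939 CPM in MoM TG and 183 and 435 CPM in MoM WT (log2 fold change 1.44 ± 0.76, adjusted p = 0.772 in edgeR's test). Casp1 was at 71.0 and 83.1 CPM in MoM TG and 54.0 and 43.8 CPM in MoM WT (0.66 ± 0.23, adjusted p = 0.755), the 1 member below 0.05 before adjustment. Both TG libraries were above both WT libraries for these genes, the precursor and the protease that cuts it. Il1a lay the other way, at 14.5 and 114 CPM in MoM TG and 197 and 115 CPM in MoM WT (-1.28 ± 0.89, adjusted p = 0.827), a pair of groups whose nearest values were 114 and 115 CPM. That value rested on the TG libraries, at -3.43 without replicate 2 and -0.45 without replicate 1 of MoM TG. The value of Il1b was 0.96 without replicate 1 and 2.20 without replicate 2 of MoM WT.

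Whether the genotype difference itself differed between subsets was tested as an interaction, in which 0 of 10 members and 0% of genes were called by edgeR, and 51 genes but no member by DESeq2. At an unadjusted p below 0.05 stood 1 member, against 6.42% of all genes. This was Nlrp3, whose TG effect in MoM exceeded that in Kupffer cells by 1.00 ± 0.36 (log2, adjusted p = 0.626). With both subsets averaged, TG and WT overlapped for all 10 members, and 1.35% of all genes did not overlap. Each genotype then holds both subsets, so the 5 members whose subsets did not overlap could not have separated by genotype. The member below 0.05 before adjustment in that average was Casp1 (0.44 ± 0.16, adjusted p = 0.737). The members' median log2 fold change of TG over WT was 0.42 in Kupffer cells and 0.45 in MoM, beside 0.03 and -0.04 over all genes tested.

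**Figure D5:**
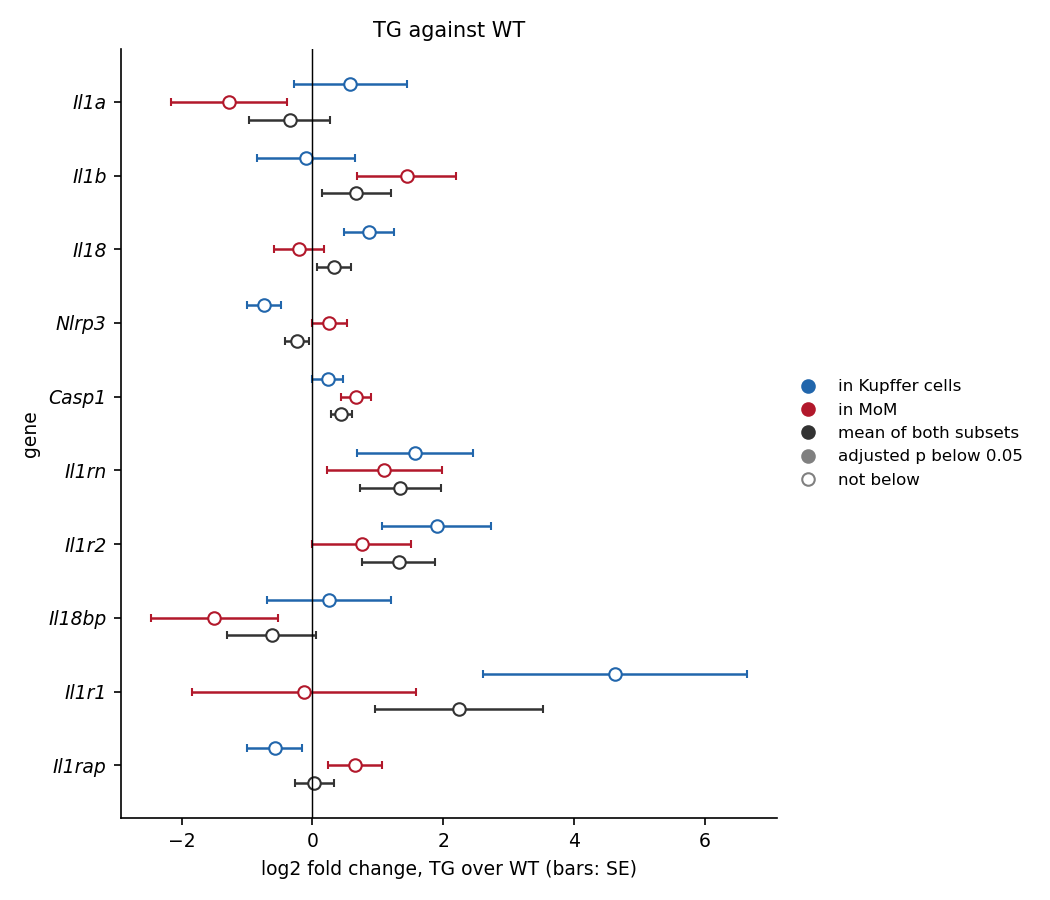
Log2 fold change of TG over WT for each member, with standard errors as bars. For each gene the upper row is Kupffer cells, the middle row MoM and the lower row the mean of both subsets. No member passed the test; Nlrp3 stands at -0.74 in Kupffer cells, and Il1r1 has the widest bars.

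Around the members, 4 lists of pathway genes were read in the averaged comparison of subsets, where 18.7% of all genes were called. Of the 13 relatives of IL-1 and IL-18, 6 were tested, 3 rose in MoM and 1 fell, with a median log2 fold change of 2.84, beside 0.09 over all genes. The receptor chains of IL-18 were among them: Il18r1 stood at 19.8 and 13.4 CPM in MoM TG, 2.93 and 14.2 CPM in MoM WT, 1.21 and 4.24 CPM in Kupffer TG, and 0.646 and 1.05 CPM in Kupffer WT (log2 fold change 2.97 ± 0.66, adjusted p = 0.0299 by edgeR's test). On the log2 scale Il18rap rose by 3.88 ± 1.02 (adjusted p = 0.045) and the IL-33 receptor gene Il1rl1 by 4.20 ± 0.90 (adjusted p = 0.0279), while the IL-36 receptor gene Il1rl2 fell by 1.47 ± 0.32 (adjusted p = 0.029). The IL-18 receptor is best known from NK and T cells, and 404 and 184 CPM of NK cell markers stood in MoM TG, 24 and 155 CPM in MoM WT, 9.98 and 134 CPM in Kupffer TG, and 4.99 and 5.94 CPM in Kupffer WT. T cell markers summed to 91.8 and 148 CPM in MoM TG and 50 and 118 CPM in MoM WT. In Kupffer cells they summed to 48.8 and 220 CPM in TG and 30.3 and 34.6 CPM in WT. The part of NK and T cells in these receptor levels was not tested.

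Of 20 inflammasome partners, none rose and 5 fell in MoM, with a median log2 fold change of -0.21. Ninj1, whose product ruptures the membrane of dying cells, stood at 80.0 and 102 CPM in MoM TG, 212 and 88.5 CPM in MoM WT, 557 and 320 CPM in Kupffer TG, and 506 and 539 CPM in Kupffer WT (log2 fold change -2.03 ± 0.34, adjusted p = 0.0166 by edgeR's test). P2rx7, the ATP-gated channel upstream of NLRP3, fell by 1.59 ± 0.30 on the log2 scale (adjusted p = 0.0218). The sensor genes Naip1 and Naip2 fell by 2.83 ± 0.53 (0.0208) and 0.73 ± 0.16 (0.0305) on that scale, though reads of the near-identical Naip genes may be split between copies, and the fifth was Txnip.

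Of 16 signalling adaptors, 5 rose in MoM and none fell, with a median log2 fold change of 0.27. Nfkb1, a subunit of NF-κB, stood at 511 and 509 CPM in MoM TG, 320 and 473 CPM in MoM WT, 202 and 201 CPM in Kupffer TG, and 196 and 204 CPM in Kupffer WT (1.16 ± 0.17, adjusted p = 0.0143 by edgeR's test). The kinase family genes Irak2 (1.13 ± 0.19, 0.0171), Ikbkb (0.98 ± 0.16, 0.0158) and Chuk (0.73 ± 0.15, 0.0258) rose, as did Traf6. Within TG alone Ikbkb (1.41 ± 0.23, 0.0425) and Irak2 (1.57 ± 0.27, 0.0476) passed. Of 18 response genes 3 rose and none fell, with a median of 0.26. Ptgs2, the inducible cyclooxygenase, stood at 366 and 1318 CPM in MoM TG, 84.3 and 672 CPM in MoM WT, 75.1 and 81.0 CPM in Kupffer TG, and 19.9 and 6.42 CPM in Kupffer WT (4.14 ± 0.84, adjusted p = 0.0249). The other called response genes were Zc3h12a, which encodes the RNase regnase-1 (1.70 ± 0.36, 0.0282), and the acute-phase gene Saa3 (5.20 ± 1.26, 0.0364).

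These list counts rested on single libraries. The number of all genes called fell and rose with them across the same fits, so the swing is not particular to the lists. Without Kupffer WT replicate 1, Kupffer WT replicate 2 or MoM TG replicate 1, no gene of the 4 lists passed edgeR's test. Without MoM TG replicate 2 there were 1 relative, 0 partners, 2 adaptors and 1 response gene, and without MoM WT replicate 2 there were 0, 3, 4 and 2. Without Kupffer TG replicate 1 the counts were 3, 3, 3 and 0, without Kupffer TG replicate 2 they were 5, 9, 5 and 5, and without MoM WT replicate 1 they were 3, 4, 6 and 4. Without both libraries rich in endothelial markers they were 5, 10, 8 and 7. None of the 17 called genes changed direction in any alternative, though they were chosen by their calls in these same libraries.

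Between genotypes edgeR called 0 of the 60 tested genes of the 4 lists in Kupffer cells, in MoM and in their average. At an unadjusted p below 0.05 there were 3, 8 and 9 of them (5%, 13.3% and 15%), beside 5.94%, 6.47% and 6.4% of all genes, and DESeq2 called Ifng in Kupffer cells, none in MoM, and Ifng and Saa3 in the average. In Kupffer cells the smallest p was that of Ifng, which encodes interferon-γ, a product of T and NK cells that answer IL-18: 2.42 and 31.9 CPM in Kupffer TG and 0.718 and 0.448 CPM in Kupffer WT (log2 fold change 4.87 ± 1.37, adjusted p = 0.73 by edgeR's test). The higher TG value was that of replicate 2, where T cell markers summed to 220 CPM, against 48.8 CPM in Kupffer TG replicate 1 and 30.3 and 34.6 CPM in Kupffer WT. In MoM it was that of Irak3, an inhibitory kinase homologue of the IL-1 pathway, at 54.8 and 53.2 CPM in MoM TG and 22.5 and 27.4 CPM in MoM WT (1.11 ± 0.31, adjusted p = 0.755). The authors' deposited table lists 2 genes of the lists, Ptgs2 with a log2 fold change of 2.59 (adjusted p = 0.00304) and Ifng with 4.89 (adjusted p = 0.00412).

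Likeness between members was read as Pearson r of log2(CPM + 0.5) over the 8 libraries, as a description in which points share the split into subsets. Il18 and Il18bp, ligand and inhibitor, ran together (0.94), while Il1r2 ran against both (-0.86 with Il18 and -0.93 with Il18bp). Among 8888 genes, the 3 most like Il1r2 were Eif3f (0.998), Pglyrp1 (0.997) and Ythdf1 (0.997), and the 3 most like Il18bp were Gpx3 (0.997), Mgme1 (0.995) and P2ry13 (0.994). Those of Il18 were Cpped1 (0.994), Ccl24 (0.989) and Slc31a2 (0.982), and those of Casp1 were Pla2g16 (0.988), Slc28a2 (0.981) and G3bp2 (0.975). Il1a was most like Arhgef5 (0.994), Il1b like Cdv3 (0.96), Nlrp3 like Nfx1 (0.975), Il1rn like Bak1 (0.974) and Il1rap like Pik3cg (0.969). Il1r1 was most like Osmr (0.994), Ctgf (0.992) and Apold1 (0.989), and these followed the same 4 libraries.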

How the data were processed

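RNA of 8 libraries, 2 in each of 4 groups taken from the sample titles, was aligned to mm10 with STAR 2.5.2b, per the submitters' processing notes. Which counter, annotation and strand setting were used is not given in the sources used here. Deposited tables hold counts, 1 whole number per gene symbol, not normalized. Even numbers made up 65.0% to 68.0% of counts below 20, so mates may have been counted separately and counts overstate independent fragments; 1 count was 0.033 to 0.0382 CPM before TMM scaling. The authors' deposited table of TG against WT holds log2 fold changes and adjusted p-values, per the file headers.

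All libraries were fitted with 4 group means in edgeR 4.0.16 (R 4.3.3, limma 3.58.1): filterByExpr (15254 of 24786 genes), TMM, and the quasi-likelihood F-test, with Benjamini-Hochberg adjustment over all genes for each of 7 comparisons. The common biological coefficient of variation was 0.507. The SE of a fold change was taken from its F statistic. The fit was tested on simulated data, with 50 genes changed at each of 4 folds (2, 4, 8 and 16). For TG against WT in Kupffer cells it called 1, 17, 35 and 34 of them, so most 2-fold and 4-fold changes were missed. For the averaged comparison of subsets it called 7, 33, 43 and 47. False calls were 5 in each comparison. The 3 ratios were compared by exact permutation tests over libraries, 2-sided. Alternatives were size factors, no filter, the replicate block, DESeq2 1.42.0, the 4 libraries of a comparison alone, leaving out each library, leaving out both libraries rich in endothelial markers (Kupffer TG replicate 2 and MoM WT replicate 1), and for ratios other pseudocounts than 0.5 CPM. Positions and exon lengths came from GENCODE M21 (GRCm38, the build mm10), promoters from RefSeq (GRCm38.p6). Python 3.11.15, pandas 2.3.3, numpy 2.4.6 and matplotlib 3.10.9 were used.

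The members and lists were chosen with earlier results of these data known. Named were all members, called genes of the lists (up to 4 per list and comparison, otherwise the 2 of smallest p as values), the 3 genes most like each member (mean of at least 10 CPM) and 4 genes that check the labels, (Tgfbr2, Clec4f, Adgre1 and Ccr2). The counts and single values of the lists under the alternatives, the names Txnip and Traf6, and 5 member fold changes near 0 or widely spread, were added after seeing the data. Of 14 marker lists, those given are a selection, and others moved with members too. Over the 8 libraries Il1r2 had a Pearson r of 0.95 with B cell, 0.91 with mast cell and basophil, 0.87 with NK cell and -0.95 with pan-macrophage markers. Il1r1 had 0.86 with T cell and 0.80 with stellate cell markers. Il1rn had 0.80 with T cell and -0.82 with dissociation stress markers.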

Additional observations from a re-analysis of the deposited data

How the results depend on the processing

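Of the member fold changes that passed the test, came from groups without overlap or had an unadjusted p below 0.05, none changed sign in its 13 or 14 alternatives. Where groups did not overlap this says little, since leaving out 1 library cannot reverse their order. The other fold changes given did change sign: averaged over genotypes, MoM over Kupffer cells, Il1b (-0.12) was at 0.04 with the replicate block and at -0.51 to 0.38 without 1 library, Il1rn (0.42) at -0.31 to 0.77 and Il1r1 (1.34) at -0.37 to 3.71. Within WT, Nlrp3 (-0.03) was at -0.14 to 0.02, and its TG effect in MoM (0.26) at -0.05 to 0.52. Averaged over genotypes, 4 members were called, and 0 to 5 when 1 library was left out. Within TG there were 2 members called, 1 with the replicate block, 6 by DESeq2, 0 from only the 4 libraries compared, and 0 to 3 when 1 library was left out. Within WT there was 1, with 4 by DESeq2, 3 from only the 4 libraries, 4 without both libraries rich in endothelial markers, and 0 to 2 when 1 library was left out. Beyond edgeR's calls, DESeq2 called Il1a (adjusted p = 0.0106), Nlrp3 (0.00435), Il18bp (5.6e-05) and Il1rap (0.0383) within TG, and Il18 (0.032), Il18bp (0.0309) and Casp1 (0.00633) within WT. Calls between genotypes stayed at 0 members under every alternative run.

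The log2 ratio of Il1rn to Il1b differed between TG and WT by 0.48, by -0.05 without both libraries rich in endothelial markers, and by -0.11 to 0.93 when 1 library was left out. Between MoM and Kupffer cells that difference was 0.11 and ran over -0.44 to 0.80. Il1r2 to Il1r1 differed between TG and WT by 0.63, with -1.08 to 2.47 when 1 library was left out. TG and WT were pooled over subsets here, so leaving out 1 library also unbalances the subsets. The Il1r2 to Il1r1 ratio separated the subsets (mean log2 ratio 3.87 in MoM and -1.04 in Kupffer cells), so that imbalance enters its range. Other causes of these ranges were not tested.

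Over all genes, calls within TG numbered 381, with 2658 by DESeq2, 2130 without both libraries, 0 from only the 4 libraries and 0 to 1026 without 1 library. Within WT they numbered 178, with 2942, 2677, 1585 and 0 to 1434. The average gave 2845, with 4576 by DESeq2, 4972 without both and 84 to 4458 without 1. Between genotypes 0 became 0 to 257 in Kupffer cells and 0 to 83 in the interaction without 1 library, and by DESeq2 236, 133 and 51 in Kupffer cells, MoM and the interaction.

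The replicate numbers pair no samples by the labels. Same-numbered libraries deviated together with r of -0.135 to 0.619 over 6 pairs of groups, and the block moved the call of Il18 within TG to an adjusted p of 0.0594 (edgeR); genes called were then 301 within TG, 234 within WT and 3171 in the average.

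With 2 libraries a group, the log2 fold change of a member between genotypes within a subset had an SE of 0.23 to 2.02.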

Other observations

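MoM TG replicate 1 had the lowest Il1a level of all 8 libraries, 14.5 CPM, beside 743 CPM of Il1b, while the other 3 MoM libraries held 114 to 197 CPM of Il1a. Gm14023, a gene on the other strand that shares 222 bp of exon with Il1a, was lowest in the same library, at 3.46 CPM, where the other 3 MoM libraries held 18.4 to 34.3 CPM and the Kupffer libraries 52.9 to 63.9 CPM.

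Il1bos, on the strand opposite Il1b, stood at 1.42 to 3.92 CPM in MoM libraries and 1.08 to 1.89 CPM in Kupffer libraries. Numa1, which shares 80 bp of exon with Il18bp, stood at 185 to 254 CPM in MoM libraries and 208 to 357 CPM in Kupffer libraries, without the separation of Il18bp.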
